A study of Cavia porcellus with 9 samples.

Results

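A set of 10 genes that mark microglia or encode complement proteins was followed in the retina of guinea pigs reared under coloured or white light. The set was fixed by name as C1qa, C1qb, C1qc, C3, Cx3cr1, Csf1r, Aif1, Tyrobp, P2ry12 and Cd68. All 10 are among the 19962 genes of the count table, and all 10 passed the filter on low counts that left 15469 genes for testing. The animals were male tri-color guinea pigs of the Dunkin-Hartley strain, obtained at 2 weeks of age and randomly allotted to green light, blue light or white light for 8 weeks on a daily light cycle. Retinas are labelled as taken at 12 weeks of age, and no allele or drug differs between the groups. Wavelengths and intensities of the lights are not stated in the labels. The series title sets the study in wavelength defocus and refractive development, so each coloured light was compared with white light, and green with blue.

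Each light group has 3 libraries of whole retina, with 62155041 to 74979806 counts per library. The titles carry only 2 animal numbers per group: libraries 1 and 2 of green share a number, as do libraries 2 and 3 of blue and libraries 1 and 2 of white. The blue and white pairs are marked od and os, the right and the left eye, while both green libraries are marked od, so they may come from the same eye and the 3 green libraries may hold fewer than 3 separate samples. Library 1 of blue and library 3 of white are titled 2R-23 and R-23, and whether these name 1 animal is not stated. The p-values and intervals below therefore set differences against the spread between libraries, part of which lies between samples of the same animal number. They take the libraries as independent, which those sharing a number may not be. Where n is given, it counts libraries. Library 1 of green and library 3 of white have titles ending in "-B", whose meaning is not stated. The tissue label was checked against 12 markers of photoreceptors and other retinal neurons, all of which were tested. Pigment epithelium markers varied within every group. Rpe65, in CPM (library-size-scaled counts, here with TMM factors), was at 14.4, 102 and 7.76 CPM under green light, 61.0, 63.8 and 98.6 CPM under blue light and 44.9, 144 and 15.1 CPM under white light.

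Microglia are the resident macrophages of the retina. They lie mainly in the synaptic layers, survey them with fine processes, and remove debris and synapses. They depend on signalling through the receptor Csf1r, and neurons address them through the chemokine fractalkine and its receptor Cx3cr1. C1q, the recognition molecule of the classical complement pathway, is made largely by microglia in the central nervous system. Its binding leads to cleavage of C3, whose fragments tag surfaces for uptake.

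None of the 10 genes passed the test for a difference between the light groups. Counts per library ran from 30 to 130 for P2ry12, the gene with the fewest, and from 1155 to 1694 for Csf1r, the gene with the most. Summed over the 10 genes, the level was 45.5, 63.8 and 53.3 CPM under green light, 46.4, 57.4 and 53.4 CPM under blue light and 49.1, 59.4 and 60.3 CPM under white light. The 3 groups overlapped in this sum. These are whole-retina samples, in which fewer cells of a type and less RNA per cell cannot be told apart.

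**Figure D1:**
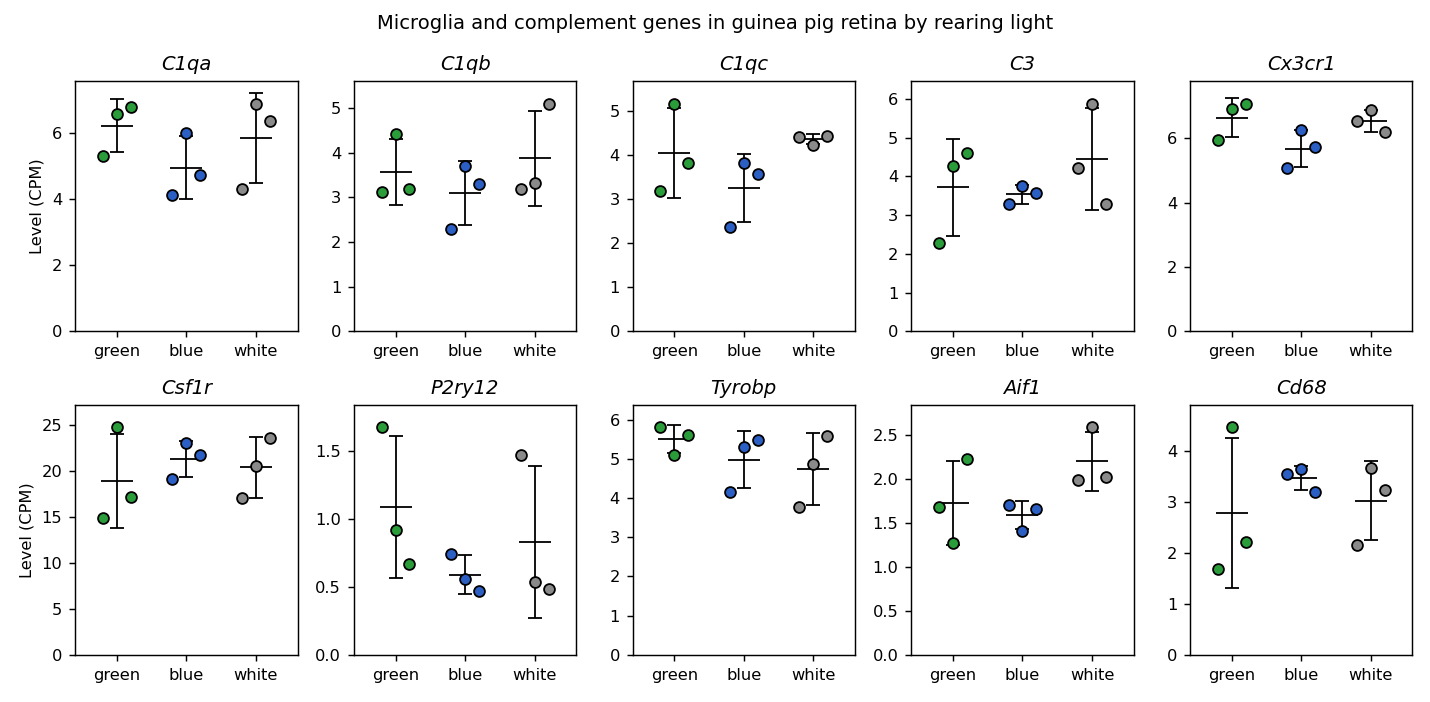
Level of each of the 10 genes in CPM (linear axis from 0) by rearing light; each point is a library, in the order 1 to 3 from left to right, and the bars show the mean and SD of 3 libraries. The groups overlap in most panels; C1qc and Aif1 have all 3 blue libraries below all 3 white ones, and P2ry12 has single high libraries of 1.67 CPM under green light and 1.47 CPM under white light.

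The 3 chains of C1q were measured separately. C1qa, which encodes the A chain, was at 5.31, 6.56 and 6.78 CPM under green light, 4.11, 5.99 and 4.74 CPM under blue light and 4.30, 6.88 and 6.37 CPM under white light. C1qb, for the B chain, stood at 3.12, 4.43 and 3.18 CPM under green light, 2.30, 3.70 and 3.30 CPM under blue light and 3.20, 3.32 and 5.10 CPM under white light. C1qc, for the C chain, had 3.17, 5.16 and 3.81 CPM under green light, 2.37, 3.81 and 3.57 CPM under blue light and 4.41, 4.23 and 4.44 CPM under white light. Library 1 of blue was the lowest of all 9 libraries for each of the 3 chains, and the highest library was a different one for each. Only C1qc in blue against white showed no overlap, with a narrow white group (SD 0.111 CPM) and a wider blue one (SD 0.770 CPM). That difference was -0.42 ± 0.23 on the log2 scale (SE; 95% interval -0.93 to 0.08) and did not pass the threshold (edgeR adjusted p = 1, unadjusted 0.092). It was -0.24 without library 1 of blue. Green minus blue gave log2 differences of 0.33 for C1qa, 0.20 for C1qb and 0.31 for C1qc, each with an interval that includes 0 (edgeR adjusted p from 0.776 to 0.866).

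C3, the central component on which the complement pathways converge, had 2.27, 4.27 and 4.61 CPM under green light, 3.28, 3.76 and 3.58 CPM under blue light and 4.21, 5.88 and 3.28 CPM under white light. Its lowest and highest libraries, library 1 of green and library 2 of white, lie in different groups, while the blue libraries were close together. The mean was 3.72 ± 1.26 CPM under green light, 3.54 ± 0.239 CPM under blue light and 4.46 ± 1.32 CPM under white light (SD, n = 3 each). The log2 difference was -0.27 ± 0.28 (SE) in green against white and -0.33 ± 0.28 in blue against white (edgeR adjusted p = 0.977 and 1).

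Among the surface receptors, Cx3cr1 was the steadiest. Libraries 1 to 3 had 5.95, 6.91 and 7.08 CPM under green light, 5.08, 6.25 and 5.72 CPM under blue light and 6.54, 6.88 and 6.19 CPM under white light. The blue group was lowest by its mean, at 5.68 ± 0.587 CPM against 6.54 ± 0.342 CPM in white (SD, n = 3 each), and its library 2 reached above library 3 of white. The fold of green over white was 1.02 with a 95% interval of 0.816 to 1.27, the narrowest for this comparison among the 10 genes, and blue over white was 0.869 with an interval of 0.698 to 1.08. Neither passed (edgeR adjusted p = 0.995 and 1).

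Csf1r, the receptor for the growth factors Csf1 and Il34, was at 14.9, 24.7 and 17.1 CPM under green light, 19.1, 23 and 21.7 CPM under blue light and 17.0, 20.5 and 23.6 CPM under white light. Both the lowest and the highest library belong to green, and these 2 libraries carry the same animal number. The log2 difference was -0.11 ± 0.18 (SE) in green against white, 0.06 ± 0.18 in blue against white and -0.17 ± 0.18 in green against blue (edgeR adjusted p = 0.982, 1 and 0.846).

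P2ry12, an ADP receptor that marks surveying microglia in mouse and human, varied most. It had 1.67, 0.920 and 0.671 CPM under green light, 0.744, 0.556 and 0.469 CPM under blue light and 1.47, 0.535 and 0.483 CPM under white light. Library 1 of green and library 1 of white stood above the other libraries, and the groups overlapped in all 3 comparisons. The coefficient of variation over the 9 libraries was 53%, where counting error alone gives 13% at its mean count if each unit of the table is 1 fragment, and more if it is not. Green minus blue had the largest log2 difference of any of the 10 genes, 0.88 ± 0.51 (SE; 95% interval -0.23 to 2.00), and did not pass (edgeR adjusted p = 0.747, unadjusted 0.11). Without library 1 of green that difference was 0.43, and the green minus white difference of 0.39 turned to -0.07. Without library 1 of white that green minus white difference was 1.09, with an edgeR adjusted p of 0.818.

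Of the intracellular and signalling members, Tyrobp encodes the adaptor through which receptors such as Trem2 signal. It was at 5.80, 5.11 and 5.62 CPM under green light, 4.15, 5.29 and 5.49 CPM under blue light and 3.76, 4.88 and 5.58 CPM under white light. Green stood highest by its mean, 5.51 ± 0.356 CPM against 4.74 ± 0.920 CPM in white (SD, n = 3 each), with overlap. Green minus white came to 0.22 ± 0.18 on the log2 scale (SE), short of the threshold (edgeR adjusted p = 0.964). Aif1, which encodes the cytoskeletal protein Iba1 used to stain microglia, was at 1.68, 1.28 and 2.23 CPM under green light, 1.71, 1.41 and 1.66 CPM under blue light and 1.99, 2.59 and 2.03 CPM under white light. The 3 blue libraries lay below the 3 white ones, while green overlapped both. Blue minus white was -0.47 ± 0.26 (SE; 95% interval -1.03 to 0.10) and did not pass (edgeR adjusted p = 1, unadjusted 0.0979).

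Cd68, a lysosomal membrane protein of phagocytes, was at 1.69, 4.47 and 2.21 CPM under green light, 3.55, 3.66 and 3.21 CPM under blue light and 2.17, 3.68 and 3.25 CPM under white light. The green group held the lowest library and the highest, and the blue libraries differed little (SD 0.233 CPM, against 1.48 CPM in green). Log2 differences were -0.12 ± 0.33 (SE) in green against white, 0.20 ± 0.33 in blue against white and -0.32 ± 0.33 in green against blue (edgeR adjusted p = 0.988, 1 and 0.841).

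Counted over the 10 genes, edgeR called 0 at an adjusted p under 0.05 in each comparison, where it called 0.00646% of all tested genes in green against white, 0.00646% in blue against white and 0% in green against blue. At an unadjusted p under 0.05 stood 0 of the 10 in each, against 5.81% of all genes in green against white (3.52% higher, 2.29% lower), 4.45% in blue against white (2.47% higher, 1.98% lower) and 7.18% in green against blue (4.11% higher, 3.06% lower). DESeq2 and limma voom called 0 of the 10 as well, with 0 at an unadjusted p under 0.05. Over all 15469 tested genes DESeq2 called 24 in green against white, 28 in blue against white and 48 in green against blue. For voom it was 0 in each. When the 3 lights were tested together for any difference, 0 of the 10 were called, where 0.00646% of all genes were. In that joint test 0 of the 10 stood at an unadjusted p under 0.05, where 5.94% of all genes did, and the adjusted p ran from 0.909 for Aif1 to 0.956 for Csf1r.

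Groups did not overlap for 0 of the 10 in green against white, where they did not for 10.1% of all tested genes (5.34% higher, 4.74% lower). In blue against white this held for 2 of the 10, C1qc and Aif1, both lower in blue, where it held for 9.9% of all genes (5.76% higher, 4.14% lower). In green against blue it held for 0 of the 10 and for 14.2% of all genes (7.23% higher, 6.94% lower).

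By direction, 4 of the 10 were higher in green than in white, 3 of the 10 higher in blue than in white and 8 of the 10 higher in green than in blue, where 52.4%, 51.5% and 49.4% of all genes were. The median log2 difference of the 10 was -0.11 in green against white, -0.28 in blue against white and 0.18 in green against blue, beside medians of 0.009, 0.005 and -0.003 over all genes. The comparisons share libraries, so these counts are not separate pieces of evidence. In fold terms the 95% intervals reached from 0.326 at their lowest, for P2ry12 in blue over white, to 3.99 at their highest, for P2ry12 in green over blue. For Csf1r, Cx3cr1 and Tyrobp they stayed between 0.672 and 1.54 in every comparison.

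**Figure D2:**
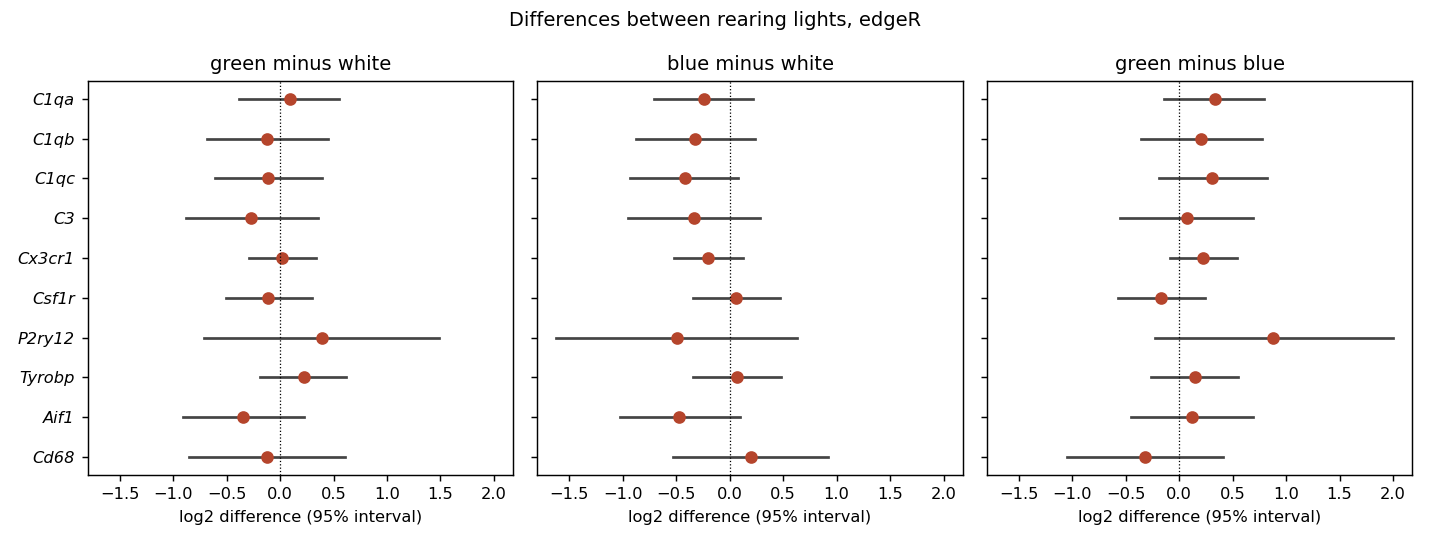
Log2 difference of each of the 10 genes under green against white, blue against white and green against blue light, from edgeR over 9 libraries; points are the estimates and lines the 95% intervals. Every interval includes 0, and those of P2ry12 are the widest, reaching from -0.23 to 2.00 in green minus blue.

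The members did not all vary together. Library 1 of green, library 1 of white and library 3 of green were the 3 lowest libraries for Cd68, at 1.69, 2.17 and 2.21 CPM. The same 3 were the lowest for Csf1r, at 14.9, 17.0 and 17.1 CPM, and library 2 of green was the highest for both genes. P2ry12 showed its 2 highest values in 2 of those 3 low libraries, at 1.67 CPM in library 1 of green and 1.47 CPM in library 1 of white. Cx3cr1 and the 3 C1q chains instead had library 1 of blue as their lowest, where Cd68 was at 3.55 CPM and Csf1r at 19.1 CPM. This ordering was noticed after the values were seen.

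Pigment epithelium markers ran low in the libraries where Cd68 was lowest. Over 14 such markers, the mean log2 level relative to all libraries was -0.57, 0.19 and -0.97 under green light, 0.49, 0.04 and 0.39 under blue light and -0.21, 0.87 and -0.24 under white light, and the summed level of the list was 315, 795 and 295 CPM under green light, 590, 632 and 790 CPM under blue light and 423, 819 and 356 CPM under white light. The 3 libraries lowest in Cd68 all lay below the mean in these markers, as did library 3 of white, where Cd68 was at 3.25 CPM. With the level of this list as a covariate, the Cd68 difference was 0.19 in green against white and 0.07 in green against blue, both of opposite sign to the values without it and neither passing (edgeR adjusted p = 1 for both). The part of pigment epithelium in the Cd68, Csf1r and C3 values was not tested beyond that fit. For Csf1r the covariate brought the difference to -0.01 in green against white and -0.03 in green against blue, where it was -0.11 and -0.17 without it. For C3 green against white came to -0.07, where it was -0.27. Its green against blue difference instead went from 0.07 to 0.28, and blue against white from -0.33 to -0.35. For the C1q chains the covariate left the signs as they were, with 0.39 for C1qa and 0.38 for C1qc in green against blue.

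**Figure D3:**
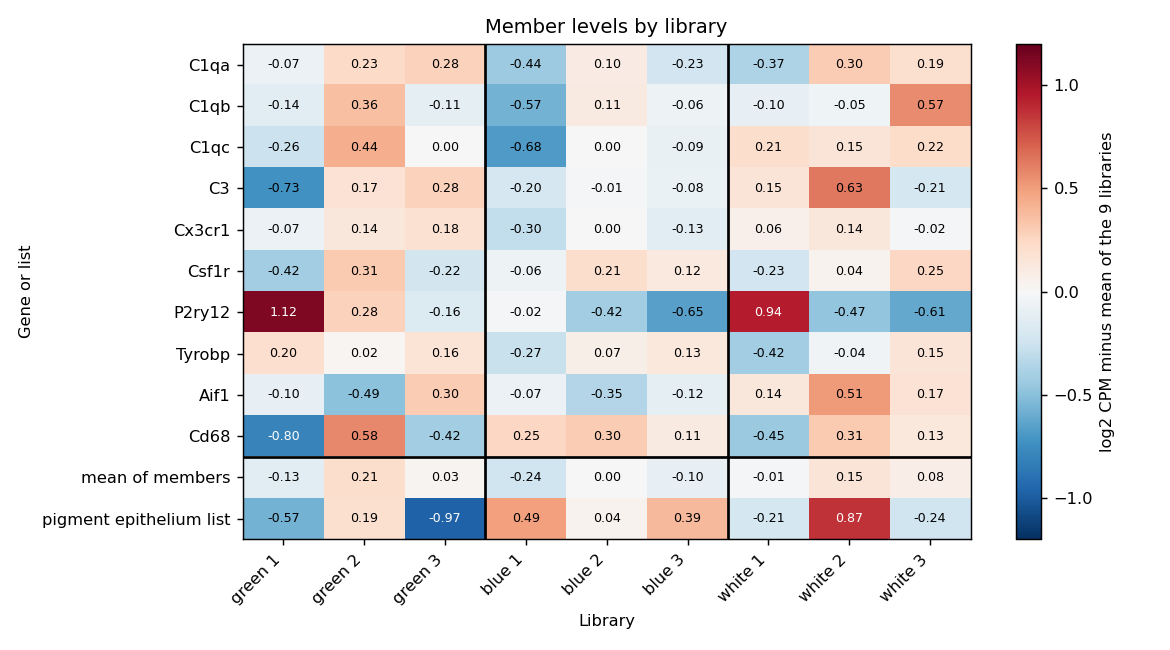
Log2 CPM of each gene minus its mean over the 9 libraries, by library, with the mean of the 10 genes and of the 14 pigment epithelium markers below the line; red is above and blue below the mean. P2ry12 stands out at 1.12 in library 1 of green and 0.94 in library 1 of white, and Cd68 at -0.80 in library 1 of green.

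Within groups, all of the 10 genes but Cx3cr1 spread more than the median gene. The median within-group SD of the 10 was 0.289 on the log2 scale, from 0.124 for Cx3cr1 to 0.649 for P2ry12. Over all tested genes, which were not matched to the 10 by level, it was 0.175. The highest library exceeded the lowest 1.39-fold for Cx3cr1, 2.18-fold for C1qc and 3.55-fold for P2ry12. Counting error at the mean count was between 2.68% for Csf1r and 13% for P2ry12, less than the coefficient of variation over the libraries of each of the 10, which was 10.2% at its lowest (Cx3cr1). Such counting errors cover sampling of counts only, and take each unit of the table as 1 fragment. By the median over the pairs, a shared animal number did not go with closer values, but the pairs were unlike. The median absolute log2 difference over the 10 genes was 0.375 in the 3 pairs of libraries with a number in common, 0.315 in the 6 other pairs within a group and 0.281 in the 27 pairs between groups. Over all tested genes the corresponding values were 0.208, 0.188 and 0.175. The widest gap within a pair was that of P2ry12 in the white pair, 1.42 on the log2 scale (library 1 minus library 2), followed by Cd68 in the green pair at -1.39 (library 1 minus library 2). In the blue pair the widest gap was 0.34, for C1qa (library 2 minus library 3).

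Other microglia and macrophage genes had no edgeR calls either, but did not share the directions of the 10 members. Of 40 listed genes beyond the 10 members, 33 are in the table and 30 were tested, and edgeR called 0 of the 30 in each comparison. At an unadjusted p under 0.05 stood 1 of 30 in green against white, 0 in blue against white and 2 in green against blue. Of all tested genes, 5.81%, 4.45% and 7.18% stood at that level in the same order. The median log2 difference of the list was 0.00 in green against white, 0.04 in blue against white and 0.00 in green against blue. By direction, 14 of the 30 were higher in green than in white, where 4 of the 10 members were. In blue against white 18 of the 30 were higher, where 3 of the 10 members were. In green against blue it was 15 of the 30 and 8 of the 10. Over all tested genes 52.4%, 51.5% and 49.4% were higher. Slco2b1, an organic anion transporter found in microglia, was at 2.95, 3.06 and 3.08 CPM under green light, 2.33, 2.13 and 1.69 CPM under blue light and 1.78, 1.78 and 2.59 CPM under white light. Green lay above both other groups without overlap, with a log2 difference of 0.56 ± 0.22 (SE) from each (edgeR adjusted p = 0.85 against white and 0.656 against blue). Irf8, a transcription factor needed for microglia development, was at 2.75 ± 0.566 CPM under green light against 3.69 ± 0.442 CPM under blue light (SD, n = 3 each; edgeR adjusted p = 0.709). Dock2, a guanine exchange factor of leukocytes, differed by -0.19 ± 0.08 (SE) in green against blue, without overlap (edgeR adjusted p = 0.686).

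Tmem119, a marker of microglia in mouse and human, had 8, 0 and 0 counts under green light, 0, 0 and 9 under blue light and 5, 4 and 8 under white light, and so was not tested. If a unit of the table is 1 fragment, a count of 0 allows up to 0.0400 to 0.0483 CPM depending on the library (3 counts of its total). Low counts cluster on multiples of 4, and the limit is higher if a unit is less than an independent fragment. Trem2, a receptor that signals through Tyrobp, was at 1.0, 0.561 and 0.613 CPM under green light, 1.01, 0.719 and 0.792 CPM under blue light and 0.530, 0.982 and 2.11 CPM under white light, with the highest value in library 3 of white. Itgam, a subunit of the complement receptor that binds cleaved C3, was at 2.56 ± 0.227 CPM under green light, 2.39 ± 0.188 CPM under blue light and 2.30 ± 0.435 CPM under white light (SD, n = 3 each). Its log2 difference was 0.15 ± 0.21 (SE) in green against white (edgeR adjusted p = 0.982). Fcer1g, an adaptor of Fc receptors, was at 2.17, 6.80 and 2.37 CPM under green light, 4.28, 3.47 and 4.02 CPM under blue light and 2.86, 6.23 and 3.41 CPM under white light. Libraries 1 and 3 of green were its 2 lowest and library 2 of green its highest, as for the pigment epithelium gene Rpe65 in green.

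Ligands of the members' receptors were followed as well. Il34, a neuronal ligand of Csf1r, was at 49.7, 59.5 and 49.8 CPM under green light, 49.7, 51.6 and 47.1 CPM under blue light and 51.1, 51.4 and 46.0 CPM under white light. Cx3cl1, the fractalkine gene, had 94.5, 109 and 98.4 CPM under green light, 96.1, 111 and 104 CPM under blue light and 96.5, 97.6 and 109 CPM under white light. The log2 difference of green against white was 0.10 ± 0.10 (SE) for Il34 and -0.01 ± 0.09 for Cx3cl1 (edgeR adjusted p = 0.976 and 0.999). Csf1 itself was at 3.85, 4.02 and 5.52 CPM under green light, 6.86, 4.61 and 5.33 CPM under blue light and 5.07, 6.59 and 5.39 CPM under white light, with a log2 difference of -0.35 ± 0.21 in green against white (edgeR adjusted p = 0.913).

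Of the 14 tested ligands and signals, edgeR called 0 in each comparison. At an unadjusted p under 0.05 stood 2, both in green against white, where 5.81% of all tested genes did. These were Mertk, a receptor for uptake of dying cells and of photoreceptor outer segments, and Cd200, a neuronal ligand that restrains microglia. Mertk was at 14.5 ± 1.51 CPM under green light against 11.1 ± 1.09 CPM under white light (SD, n = 3 each), a log2 difference of 0.38 ± 0.13 (SE) without overlap (edgeR adjusted p = 0.837). Cd200 was at 38.0, 27.4 and 36.6 CPM under green light against 27.7, 23.1 and 23.1 CPM under white light, overlapping through library 2 of green (edgeR adjusted p = 0.839).

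Along the complement cascade, 10 of 20 listed components other than the members were tested. The proteases of the C1 complex, C1r and C1s, were present in every library. C1r was at 3.24 ± 0.842 CPM under green light, 4.09 ± 0.385 CPM under blue light and 4.39 ± 0.754 CPM under white light (SD, n = 3 each), and C1s at 4.84 ± 1.77, 5.43 ± 1.63 and 5.86 ± 2.02 CPM in green, blue and white. Factor B (Cfb), factor D (Cfd) and properdin (Cfp) of the alternative pathway were tested too. Cfp was at 8.16, 6.83 and 7.50 CPM under green light against 6.66, 5.26 and 4.15 CPM under blue light, without overlap (log2 difference 0.48 ± 0.21, SE; edgeR adjusted p = 0.671).

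Most of the terminal pathway was at or near 0. C6, C8b and C9 had no count in any library, C7 had 4 counts in library 2 of white alone and C8a 4 counts in library 2 of green alone. C8g, whose product joins the C8 complex, was the exception, at 4.59, 4.54 and 2.82 CPM under green light, 4.60, 3.69 and 3.92 CPM under blue light and 3.35, 3.27 and 3.17 CPM under white light. C4a, C4b and C5 were not matched by symbol and are not analysed here. edgeR called 0 of the 10 tested components in each comparison. At an unadjusted p under 0.05 stood 3, all in green against blue, where 7.18% of all tested genes did. They were Cfp, the lectin pathway protease Masp2 and Fcn1. Masp2 was at 13.9, 11.2 and 10.8 CPM under green light against 11.1, 7.0 and 7.10 CPM under blue light. Fcn1, a ficolin of blood leukocytes, had 0 counts in the 3 green libraries against 0, 16 and 31 in the blue ones, so the value rests on libraries 2 and 3 of blue, which share an animal number.

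Regulators held the smallest p of the lists. Csmd3, a large membrane protein with complement control domains that is expressed in neurons, was at 4.07, 4.64 and 4.89 CPM under green light, 1.01, 1.59 and 2.44 CPM under blue light and 4.10, 3.70 and 2.72 CPM under white light. All blue libraries lay below all green and all white ones. The log2 difference was 1.43 ± 0.29 (SE; 95% interval 0.79 to 2.08) in green against blue and -1.06 ± 0.29 in blue against white, and edgeR did not call either (adjusted p = 0.488 and 0.917). DESeq2 called Csmd3 in green against blue (adjusted p = 0.00505), where it called 48 of the 15469 tested genes. This was its only call among the 6 microglia and complement lists. Cfi, a protease that inactivates cleaved C3, was at 7.23, 7.97 and 5.12 CPM under green light, 5.13, 5.59 and 5.21 CPM under blue light and 2.58, 3.08 and 5.82 CPM under white light. Its log2 difference was 0.83 ± 0.28 in green against white, with overlap through library 3 of white (edgeR adjusted p = 0.837).

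Cd46, a membrane cofactor for the same inactivation, was at 2.44, 2.35 and 2.81 CPM under green light, 2.29, 2.52 and 2.54 CPM under blue light and 1.87, 1.70 and 2.01 CPM under white light. White lay below both coloured lights without overlap, with log2 differences of 0.44 ± 0.19 (SE) in green and 0.40 ± 0.19 in blue (edgeR adjusted p = 0.852 and 1). Csmd2, a relative of Csmd3, was at 94.2, 109 and 93.9 CPM under green light against 75.9, 87.4 and 78.4 CPM under blue light, without overlap (log2 difference 0.30 ± 0.09, SE; edgeR adjusted p = 0.614). Clu, which encodes the extracellular chaperone clusterin and is also made by glia and pigment epithelium, was at 1900, 2500 and 2060 CPM under green light against 2610, 2830 and 2880 CPM under blue light, again without overlap and with green lower (log2 difference -0.37 ± 0.12; edgeR adjusted p = 0.621). Serping1, the inhibitor of the C1 proteases, differed by -0.23 ± 0.10 in green against blue (edgeR adjusted p = 0.697). Of the 10 tested regulators edgeR called 0 in each comparison. At an unadjusted p under 0.05 stood 3 in green against white, 1 in blue against white and 3 in green against blue. The shares over all tested genes were 5.81%, 4.45% and 7.18%.

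Of the 8 tested complement receptors and binding proteins, edgeR called 0 in each comparison. At an unadjusted p under 0.05 stood 2 in green against white, 0 in blue against white and 2 in green against blue, all lower in green. Of all tested genes, 5.81%, 4.45% and 7.18% stood at that level in the same order. Calr, the chaperone calreticulin that also binds C1q, was at 625, 684 and 703 CPM under green light, 707, 725 and 724 CPM under blue light and 780, 844 and 770 CPM under white light. The log2 difference was -0.25 ± 0.07 (SE) in green against white, without overlap (edgeR adjusted p = 0.768). C1qbp, a mainly mitochondrial protein named for binding C1q, had a narrow green group of 55.8 ± 0.849 CPM against 64.0 ± 5.42 CPM in white (SD, n = 3 each; edgeR adjusted p = 0.852). Cd93, a membrane protein of endothelium, was at 1.51, 0.483 and 1.14 CPM under green light against 2.90, 1.51 and 1.58 CPM under blue light (edgeR adjusted p = 0.693). C3ar1, the receptor of the C3a fragment, was at 1.68, 1.4 and 1.46 CPM under green light against 1.19, 1.11 and 1.25 CPM under white light, also without overlap (log2 difference 0.35 ± 0.24; edgeR adjusted p = 0.946).

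Genes that microglia raise on activation were tested in 16 of 23 cases, and edgeR called 0 of the 16 in each comparison. At an unadjusted p under 0.05 stood 0 in green against white, 0 in blue against white and 2 in green against blue. The shares over all tested genes were 5.81%, 4.45% and 7.18%. The 2 in green against blue were Spp1, which encodes osteopontin, and Apoe, which Müller glia also express. Spp1 was at 35.0, 40.1 and 34.8 CPM under green light against 30.1, 29.5 and 30.3 CPM under blue light (edgeR adjusted p = 0.686), and Apoe differed by -0.48 ± 0.12 (log2, SE; edgeR adjusted p = 0.57). Tnf had no count in any library, and Clec7a, Cst7 and Nos2 had at most 5 counts in any library. Ccl2, also not tested, was at 0 CPM in all green libraries. It ran from 0 to 0.528 CPM under blue light and from 0 to 0.173 CPM under white light. Gpnmb, which pigment cells also express, was at 3.12, 15.7 and 3.88 CPM under green light, 10.7, 9.91 and 14.5 CPM under blue light and 8.80, 19.7 and 6.50 CPM under white light, low in the libraries where Rpe65 was low.

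**Figure D4:**
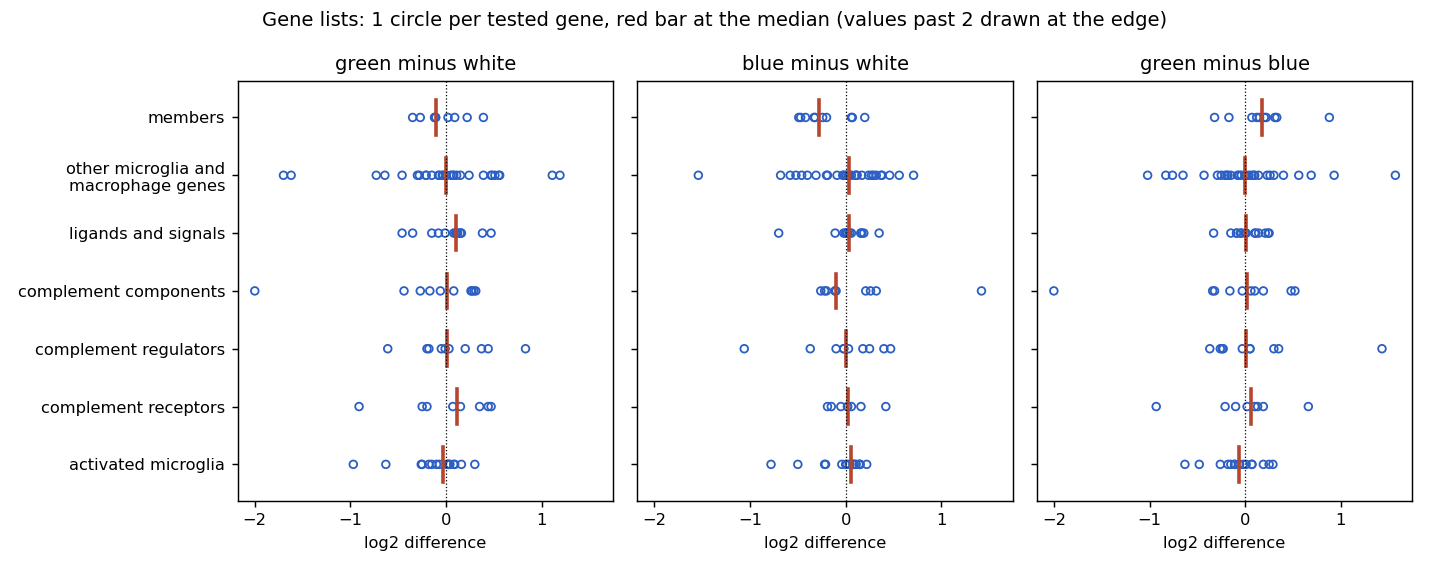
Log2 difference of every tested gene of the 10 members and of 6 further lists, for green over white, blue over white and green over blue; circles are genes, red bars the list medians, and values past 2 are drawn at the edge (Fcn1 in both panels with green). The list medians lie between -0.28 and 0.18.

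Most markers of other immune cells did not pass the filter on low counts. Of 16 listed genes of perivascular macrophages and blood leukocytes in the table, 5 were tested, with a summed level of 1.45 to 2.40 CPM under green light, 2.00 to 2.82 CPM under blue light and 1.92 to 2.27 CPM under white light. Lyve1, Cd3g and Mpo had no count in any library, and Mrc1 had 4 counts in library 3 of white alone. Of the 5 tested, edgeR called 0 in each comparison and 0 stood at an unadjusted p under 0.05. Of 10 tested markers of Müller glia and astrocytes, edgeR called 0, and 2 stood at an unadjusted p under 0.05 in green against white, 2 in blue against white and 1 in green against blue. Of 9 tested endothelial and pericyte markers it called 0, with 1, 0 and 2 at that level in the same order. DESeq2 called Flt1, a VEGF receptor on this list, in green against white (adjusted p = 0.0315), where it called 24 of the 15469 tested genes. Which cells the Flt1 counts come from was not tested. Among the 14 pigment epithelium markers 0, 1 and 0 stood at an unadjusted p under 0.05, and among the 12 photoreceptor and neuron markers 0 in each comparison. edgeR called 0 in both lists. Over all tested genes the shares at that unadjusted level were 5.81%, 4.45% and 7.18%, in the same order.

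Likeness to the mean of the 10 genes was highest for genes outside the lists. Among 13551 other genes with a mean of at least 1 CPM, the highest Pearson r over the 9 libraries was that of C2cd2l, at 0.977, followed by Otud7a at 0.973 and Elfn2 at 0.968. Next came Gmeb2, Cacng7, Arid3b, Grk1, Dennd5a, Rapgef1 and Usp2, at 0.943 to 0.928. None of these 10 genes is on the lists of microglia, complement or other cell types, which do not hold every gene of a cell type. Of the listed genes, Susd4 and Lrp1 came highest at 0.75, then the photoreceptor marker Nrl at 0.736. Fcer1g was the highest of the other microglia and macrophage genes, at 0.485. These values are a description, over libraries that share animal numbers. Of the 10 members, C1qc and Cx3cr1 followed the mean of the other 9 most closely, with r of 0.87 and 0.83. C1qa was at 0.70, C1qb at 0.62, C3 at 0.43 and Csf1r at 0.36. Cd68, Tyrobp and Aif1 hardly followed it, at 0.08, 0.03 and -0.11, and P2ry12 ran against it at -0.57. The mean therefore does not stand for all 10 genes.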

How the data were processed

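The authors deposited whole-number counts per gene for 9 libraries, per the file headers. RNA was extracted with Trizol and sequenced as paired ends, per the labels' protocols. No source used here names the aligner, counting tool, strand setting, genome build or annotation, and sharing of reads between near-identical genes could not be checked. The values were taken as raw counts because their totals differ between libraries. Low counts cluster on multiples of 4 (2014 values equal 4 and 472 equal 3), so a unit may not be a single fragment.

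All 9 libraries entered 1 fit in edgeR 4.0.16 (R 4.3.3) with light group as the only term, filterByExpr (minimum count 10, minimum total 15), TMM scaling and quasi-likelihood F tests. P-values were adjusted by Benjamini-Hochberg over 15469 genes, with a threshold of 0.05. Levels are TMM-scaled CPM, and each SE was taken as the fold change over the square root of its F. DESeq2 1.42.0 and limma 3.58.1 (voom) served as alternatives, and the fit was tested on simulated data. All 10 symbols match RefSeq names (assembly mCavPor4.1), from which no coordinates are printed. Gene lengths of the counted build are not given, so levels are not compared between genes.

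The members and lists were chosen with earlier results of these data known. From each list the text may name the 4 genes of smallest p and fixed ligands, receptors and regulators. It also names genes singled out after their values were seen (Fcer1g, Gpnmb, Cd46, C8g, Ccl2, genes at or near 0). Likeness is Pearson's r of log2 CPM (prior count 2) with the mean of the members, relative to all libraries. Of 204 listed symbols, 23 are not matched in the table. A few genes that this rule names are not reported here.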

Additional observations from a re-analysis of the deposited data

How the results depend on the processing

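The count of called members was 0 in all 3 comparisons and in the joint test under every alternative run: DESeq2's size factors or its tests, voom, no filter, counts divided by 4, counts summed per animal number, the pigment epithelium level or the "-B" suffix as a covariate, no "-B" libraries, only the 6 libraries compared (not run for the joint test), and each library left out in turn. The smallest adjusted p of a member in any of them was 0.606, for Cd68 in green against blue without library 2 of green. No paired analysis was possible because the library numbers follow the order of deposition and pair nothing across groups, and the labels do not state whether 2R-23 (blue) and R-23 (white) are 1 animal.

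The number of called genes over the whole table depended more on the setting. In green against white it was 1 and became 24 with DESeq2, 0 with voom, 0 with counts divided by 4, 0 with the pigment epithelium covariate, 10 without the "-B" libraries, 0 with the 6 libraries alone, and 0 to 6 with a library left out. In blue against white it was 1 and became 28 with DESeq2, 0 with voom, 0 with counts divided by 4, 3 with the suffix covariate, 12 without the "-B" libraries, 0 with the 6 libraries alone, and 0 to 7 with a library left out. In green against blue it was 0 and became 48 with DESeq2, 1 with the suffix covariate, 1 with the 6 libraries alone, and 0 to 4 with a library left out.

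Of 300 recomputed member differences, 24 changed sign, 20 of them on leaving out a library; none was called before or after. With counts summed per animal number, blue minus white was -0.03 for Csf1r and -0.05 for Tyrobp. With the pigment epithelium covariate, Cd68 was 0.19 in green minus white and 0.07 in green minus blue. With a library left out, green minus white ran from -0.10 to 0.22 for C1qa, -0.30 to 0.12 for C1qb, -0.32 to 0.04 for C1qc, -0.03 to 0.09 for Cx3cr1, -0.35 to 0.03 for Csf1r, -0.07 to 1.09 for P2ry12 and -0.64 to 0.13 for Cd68. Blue minus white ran from -0.06 to 0.17 for Csf1r, -0.08 to 0.19 for Tyrobp, -0.77 to 0.20 for P2ry12 and -0.01 to 0.36 for Cd68. Green minus blue ran from -0.11 to 0.33 for C3 and -0.10 to 0.29 for Aif1. The cause of these shifts was not tested.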

Other observations

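A few low-level immune genes had most, all or none of their counts in libraries that share an animal number. Animal numbers lie within light groups, with 2 numbers per group. Each pair can therefore be set beside the library of the other number under the same light, but an effect of number was not tested. Ms4a7, a macrophage membrane protein, had 34 and 38 counts in libraries 1 and 2 of white, which share an animal number, and 0 in the other 7 libraries. S100a9, a calcium-binding protein of neutrophils and monocytes, had 24 and 66 counts in libraries 2 and 3 of blue, which also share a number, and 0 elsewhere. Alas2, the haem synthesis enzyme of red cell precursors, had 48 and 40 counts in the same blue libraries and at most 4 in any other. Fcgr2b, the inhibitory Fc receptor, had 29, 32 and 16 counts in green, 26 in library 1 of blue and 32 in library 3 of white, and 0 in the 4 libraries that make up the blue and white pairs. These genes were chosen after their values were seen, and no test was made of the pattern.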
